A study of Homo sapiens with 12 samples.

Results

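The nuclear-encoded genes of the mitochondrial respiratory chain were followed across 12 RNA sequencing libraries of HEK293T, an established line derived from human embryonic kidney and expressing SV40 large T antigen. Members were protein-coding genes of GENCODE release 29 whose symbol starts with NDUF, UQCR, SDHA, SDHB, SDHC, SDHD or ATP5, or is COX4 to COX8 followed by a letter. Of the 58735 genes in the count tables, 103 met this rule. They comprised 45 genes of complex I, 8 of complex II, 9 of complex III, 19 of complex IV and 20 of complex V, the ATP synthase. The other 2 were the readthrough genes ATP5MF-PTCD1 and NDUFC2-KCTD14. The symbols gather assembly factors with subunits, and 12 members were assembly factors. NDUFA4 and its paralog NDUFA4L2 were counted with complex IV, where the NDUFA4 protein resides.

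Cells were transfected with 500 ng of a plasmid for miR-211 (3 libraries) or 500 ng of a control plasmid (3 libraries). Others received 1 nM of an siRNA of the Dicer-substrate type aimed at U1, a small nuclear RNA of the spliceosome (3 libraries), or a scrambled oligo (3 libraries), and the labels of both oligo groups add WT without saying what it refers to. RNA was taken 24 h after transfection and read as 126 nt pairs, per the labels. Whether the libraries of a group are separate cultures is not given in the labels. The p-values therefore reflect the spread among these libraries, which may be technical.

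Complexes I to IV pass electrons from NADH and succinate to oxygen in the inner mitochondrial membrane, and complexes I, III and IV pump protons as they do so. Complex V lets the protons flow back and makes ATP. Complex II is built wholly from nuclear genes, whereas each of the other complexes also contains subunits encoded in mitochondrial DNA, so its assembly draws on both genomes. Core subunits carry the redox centres or the catalytic sites. Supernumerary subunits surround them, and assembly factors help to build the complex but are not part of the finished enzyme.

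Levels are given in CPM, gene counts scaled so that every library has the same total. MIR211 itself had 236 to 271 CPM with the miR-211 plasmid and 0.134 to 1.30 CPM with the control plasmid. The summed level of 15 annotated U1 genes was 16.6 ± 2.51 CPM after U1 siRNA, against 18.4 ± 1.65 CPM after scrambled oligo (SD, n = 3 each), and their ranges overlapped. The labels state an inhibition of U1 by 30%. Gene counts leave out pairs that map to more than 1 place, as pairs from identical U1 copies would. The summed level is therefore not a measure of that inhibition. Gene counts totalled 4515728 to 9290686 per library. In U1 siRNA replicate 2, 44.5% of uniquely mapped pairs lay outside annotated exons, against 14.5% to 25.5% in the other 11 libraries. Among markers of the line, VIM (45.6 to 61.4 CPM), NEFL (73.1 to 108 CPM) and NEFM were present in every library, and PAX2 and LHX1 stayed under 1 CPM. Markers of melanocytes, muscle, fibroblasts, blood, testis and liver reached at most 7.09 CPM in any library.

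Because miR-211 was the agent in the plasmid experiment, its mature sequence is shown first, from RefSeq on GRCh38.p14 (chr15:31065095-31065116, minus strand), with the seed, bases 2 to 8, in capitals. A microRNA is loaded into Argonaute and recognises messages mostly through its seed.
hsa-miR-211-5p: uUCCCUUUgucauccuucgccu

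An 8mer match to this seed reads AAAGGGAA in the message, and the 7mer matches read AAAGGGA or AAGGGAA. These letters were searched on the sense strand of the longest annotated 3 prime UTR of each gene. Of the 103 members, 7 held an 8mer (6.80%) and 9 more held only a 7mer (8.74%). Of 19133 protein-coding genes with a 3 prime UTR, 8.00% held an 8mer and 17.5% only a 7mer. The UTRs of the chain genes were shorter, with a median of 449 bases against 1104 bases for all these genes. The 8mer matches lie in 4 members of complex II (the subunits SDHC and SDHD and the assembly factors SDHAF1 and SDHAF4), in UQCRFS1 of complex III, in COX5A of complex IV and in ATP5S of complex V. Sites of the genes described below are shown with the match in capitals, from GENCODE 29 transcripts on GRCh38: SDHD at chr11:112095339-112095364, plus strand; COX5A at chr15:74920283-74920308, minus strand; UQCRFS1 at chr19:29206351-29206376, minus strand; NDUFB5 at chr3:179625943-179625967, plus strand; and the first NDUFA5 site at chr7:123538891-123538915, minus strand. A match is a description of these letters and not evidence of binding.
SDHD: ataatggacAAAGGGAAatactctta
COX5A: actttaataAAAGGGAAatgagtttg
UQCRFS1: ggtctgcccAAAGGGAActgaccatc
NDUFB5: acaggttgcAAAGGGAttgctggat
NDUFA5: tcttttttaAAAGGGAgatgacaat

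Nuclear respiratory genes are known for shared transcription factors, among them NRF1, GABP of the ETS family, and YY1. RefSeq promoters, 250 bases before to 50 after the start on GRCh38.p14, matched 80 of the 103 members by Ensembl identifier or else by symbol. The palindromic NRF1 motif, the capitals of the NRF1 windows shown here, occurred in 5 of them (6.25%) and in 1.755% of all 15843 promoters. The ETS motif CCGGAAGT, on either strand, occurred in 10 (12.5%) and in 6.19% of all promoters. The YY1 motif AAGATGGCG, on either strand, occurred in 8 (10%) and in 2.74% of all promoters. The motifs do not overlap each other in letters. SDHD is shown because it held both an NRF1 and an ETS motif, and ATP5F1C, the gamma subunit of the synthase, because its NRF1 motif lies 22 bases before the start. The windows are chr11:112086753-112086782 and chr11:112086784-112086813, plus strand, and chr10:7788145-7788174, plus strand, with motifs in capitals.
SDHD, NRF1 motif: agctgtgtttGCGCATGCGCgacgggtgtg
SDHD, ETS motif: accgcctctcgACTTCCGGttcacccagca
ATP5F1C, NRF1 motif: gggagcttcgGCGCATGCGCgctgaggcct

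Together the members took 2.17% to 2.62% of all gene counts, a mean of 24368 ± 1364 CPM over the 12 libraries (SD). Complex V accounted for the most, 9058 ± 413 CPM or 37.2% of this sum. Complex I followed with 6473 ± 380 CPM (26.6%), complex IV with 4679 ± 384 CPM (19.2%), complex III with 2747 ± 207 CPM (11.3%) and complex II with 1411 ± 42.3 CPM (5.79%). A few genes held much of it: ATP5F1B alone gave 9.69% and the 10 most abundant members 39.6%. Of the 103 members, 59 averaged at least 100 CPM, 13 averaged under 1 CPM and 2 had no count in any library, COX6A2 and NDUFC2-KCTD14.

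Levels of different genes were compared per kb of annotated exon. In complex I, NDUFS5, a small supernumerary subunit of the intermembrane space side, was highest at 1061 ± 98.0 CPM per kb (SD, n = 12 libraries, as in the values that follow). In complex V, ATP5F1B, the catalytic beta subunit, reached 1017 ± 81.1 CPM per kb. These 2 genes did not differ beyond their spread. UQCR10, a small supernumerary subunit, led complex III at 761 ± 93.5 CPM per kb, COX7C led complex IV at 401 ± 35.3 CPM per kb, and SDHB, the iron-sulfur subunit, led complex II at 118 ± 4.75 CPM per kb. Per kb of the longest transcript instead, NDUFS5, ATP5F1B and SDHB still led, SDHB at 251, but UQCRH (969) stood above UQCR10 (811) and COX6B1 (524) above COX7C (504). The median per complex was 41.7 CPM per kb for complex I, 31.0 for II, 72.7 for III, 93.1 for IV and 102 for V.

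**Figure D1:**
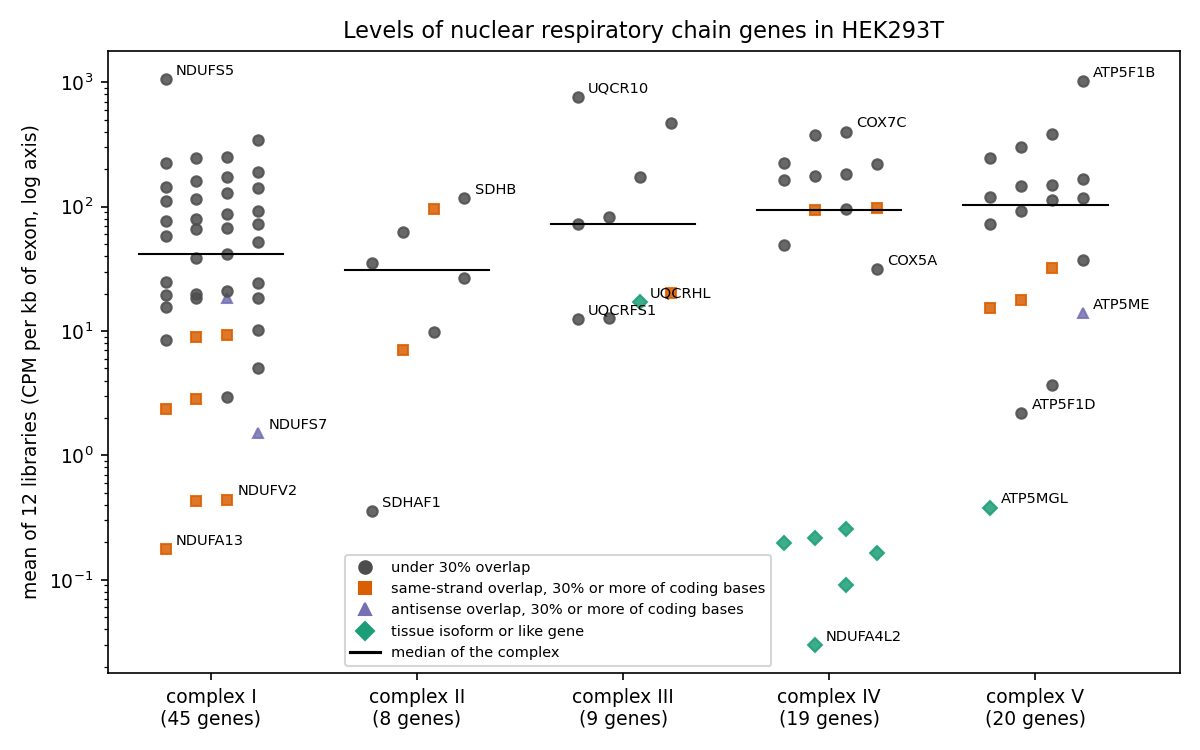
Mean level of each member over 12 libraries in CPM per kb of annotated exon (log axis), by complex; a point is a gene, the shape and colour give its overlap with other annotated genes, and the line is the median of the complex. COX6A2, at 0 counts, and the 2 readthrough genes are not drawn. The tissue isoforms of complex IV lie at 0.256 CPM per kb or below, and the genes with overlapping coding bases (squares and triangles) fill much of the lower range in complex I.

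Levels per kb were also read by the role of each gene within its complex. The 7 core subunits of complex I had a median of 18.6 CPM per kb, its 30 supernumerary subunits 74.6 and its 8 assembly factors 15.1. NDUFS8, which carries iron-sulfur clusters, stood at 41.7 ± 4.74 CPM per kb. NDUFS1, the largest subunit of the electron input arm, stood at 18.6 ± 0.835 and NDUFV1, which binds the flavin and NADH, at 18.4 ± 3.72. Per kb of exon this pair did not differ beyond its spread. Per kb of the longest transcript, however, NDUFS1 had 19.3 and NDUFV1 36.7. In complex II the 4 core subunits had a median of 65.4 CPM per kb and the 4 assembly factors 8.48. SDHA, the flavoprotein that oxidises succinate, stood at 35.3 ± 3.16 CPM per kb, the membrane anchor SDHC at 26.7 ± 1.19 and the anchor SDHD at 95.5 ± 9.46. SDHD shares 47.7% of its coding bases with the same-strand gene AP002884.3, so its value is a lower bound. The Rieske iron-sulfur protein UQCRFS1, the electron-carrying member of complex III, had 12.5 ± 2.45 CPM per kb, beside 12.8 for UQCRB, at the low end of that complex. The level of UQCRB depended on the measure. Per kb of the longest transcript UQCRFS1 had 12.5 and UQCRB 22.2. With the strand columns described below summed, they had 11.1 and 37.4 per kb of exon. UQCRC1, a peptidase-like subunit without a redox centre, stood at 172 ± 22.4. In the F1 head of complex V, the alpha subunit ATP5F1A had 119 ± 5.07 CPM per kb, the gamma subunit ATP5F1C 300.4 ± 18.1, the epsilon subunit ATP5F1E 92.2 ± 10.01 and the delta subunit ATP5F1D 2.18 ± 0.659. The subunits of this head are present in fixed numbers per enzyme, but these transcript levels depend on the length used. Per kb of the longest transcript ATP5F1A had 223, ATP5F1C 601, ATP5F1E 129, ATP5F1D 3.09 and ATP5F1B 1285. Before division by length ATP5F1A had 1300 CPM and ATP5F1C 699 CPM, the reverse of their order per kb. By each of these measures ATP5F1D was lowest and ATP5F1B highest. ATP5IF1, the inhibitor that stops the enzyme from running backwards, stood at 146 ± 16.2.

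Complex IV has paired isoforms, a widespread one and one known from particular tissues, and nearly all counts of each pair came from the widespread one. COX4I2, known from lung, had 12 counts over the 12 libraries beside 72503 of COX4I1, a share of 0.0165% (exact 95% interval 0.00855% to 0.0289%). The muscle isoform COX6A2 had 0 counts beside 10416 of COX6A1, which allows a share of up to 0.0288% by a limit of 3 counts and up to 0.0354% by the exact 95% interval. The muscle isoform COX7A1 took 0.0228% of its pair with COX7A2 (8 counts) and COX7B2 0.0423% with COX7B (10 counts). The testis isoforms COX6B2 and COX8C took 0.208% and 0.216%, from 60 and 9 counts. NDUFA4L2, a hypoxia-induced paralog, had 6 counts beside 47402 of NDUFA4, a share of 0.0127%, and 0.238% when both strand columns were summed. All intervals and limits cover counting error only. U1 siRNA replicate 2, the library with 44.5% of pairs outside exons, held 5 of the COX4I2 counts and 12 of those of COX6B2. It also held 2 counts each of COX7B2 and NDUFA4L2, 1 of COX8C and 0 of COX7A1. Scrambled oligo replicate 3 held 14 counts of COX6B2. In the unstranded counts no share of a complex IV isoform exceeded 0.270% in any of the 4 groups. All coding bases of COX6B2 lie under the same-strand gene AC020922.1, and the partners COX6A1 (53.5%) and COX8A (55.1%) are overlapped too, so the shares in these pairs also depend on pairs that were counted for neither gene.

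Among the like genes, UQCRHL, an intronless copy of the hinge protein gene UQCRH, took 5.22% of the pair (3016 against 54757 counts). Of the 126-base windows of its longest transcript, 2.58% also occur in UQCRH transcripts. ATP5MGL took 0.558% beside ATP5MG (24 against 4280 counts). Of the coding bases of ATP5MG, 56.5% lie under the same-strand gene AP001267.5, so this share also depends on pairs that were counted for neither gene. The c ring of complex V, the rotor through which protons pass, is made of an identical mature peptide from 3 genes. ATP5MC3 gave 42.6% of their counts, ATP5MC2 33.2% and ATP5MC1 24.2%. Per library the ATP5MC3 share lay between 41.1% and 44.3%, so all 3 genes kept their order in all 12 libraries.

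Some members had very low counts and share coding bases with another annotated gene, where a pair that falls in both genes is counted for neither. NDUFV2, an iron-sulfur core subunit of complex I, had 1.197 CPM, and 84.7% of its coding bases lie in exons of the same-strand gene AP005263.1. The supernumerary subunit NDUFA7 had 0.613 CPM with 78.3% shared with AC010323.1, and NDUFA13, also known as GRIM-19, had 0.476 CPM with 55.2% shared with AC011448.1 and YJEFN3. The overlapping same-strand genes held few counts, and YJEFN3 had 0.425 CPM. Leaving tissue isoforms, like genes and readthrough genes aside, 15 members shared at least 30% of their coding bases with a same-strand gene and had a median of 9.31 CPM per kb. The 74 members with less overlap had a median of 89.2 CPM per kb. Overlap was not the only feature of low members: ATP5F1D (4.91 CPM), SDHAF1 (0.401 CPM) and NDUFAF8 (6.99 CPM) share no coding bases, and their longest transcripts are 63.0% to 63.9% G and C. SDHAF4 (14.3 CPM) and NDUFAF6 (18.9 CPM) share none either, and theirs are 43.6% and 45.2% G and C. NDUFB7, at 65.0% G and C and without overlap, had 129 CPM per kb. Counts of overlapped genes are lower bounds, and the part of overlap and of base composition in these levels was not tested.

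Other members overlap genes on the antisense strand, and the deposited strand columns hold pairs for them that the unstranded column does not. ATP5ME, the e subunit of the synthase membrane part, has 44.0% of its coding bases under the antisense gene MYL5 and had 1072 counts over the 12 libraries in the unstranded column. The sum of the strand columns gave it 18501, or 17.3 times as many. Across all genes this ratio was 1.14. NDUFS7, the core subunit that carries the last iron-sulfur cluster before quinone, had 948 counts against 4951 in that sum. The same held for the small complex III subunits UQCRQ (8863 against 44341) and UQCRB (10245 against 33915). This sum also counts pairs that belong to the antisense gene, so it is an upper value for each of these members.

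Summed by complex and library, the members moved with the replicate number in the plasmid experiment. All members together had 21710, 24566 and 24945 CPM in the libraries with miR-211, against 21827, 23960 and 24148 CPM in those with plasmid control. Replicate 1 was lowest in both groups, and the groups overlapped. The sums were 26243, 24212 and 25107 CPM after U1 siRNA, against 25360, 25102 and 25238 CPM after scrambled oligo. U1 siRNA replicate 1 was the highest of all 12 libraries, and its replicate 2, the library with 44.5% of pairs outside exons, was the lowest of its group. For bulk RNA, fewer cells with a transcript and less of it per cell cannot be told apart.

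**Figure D2:**
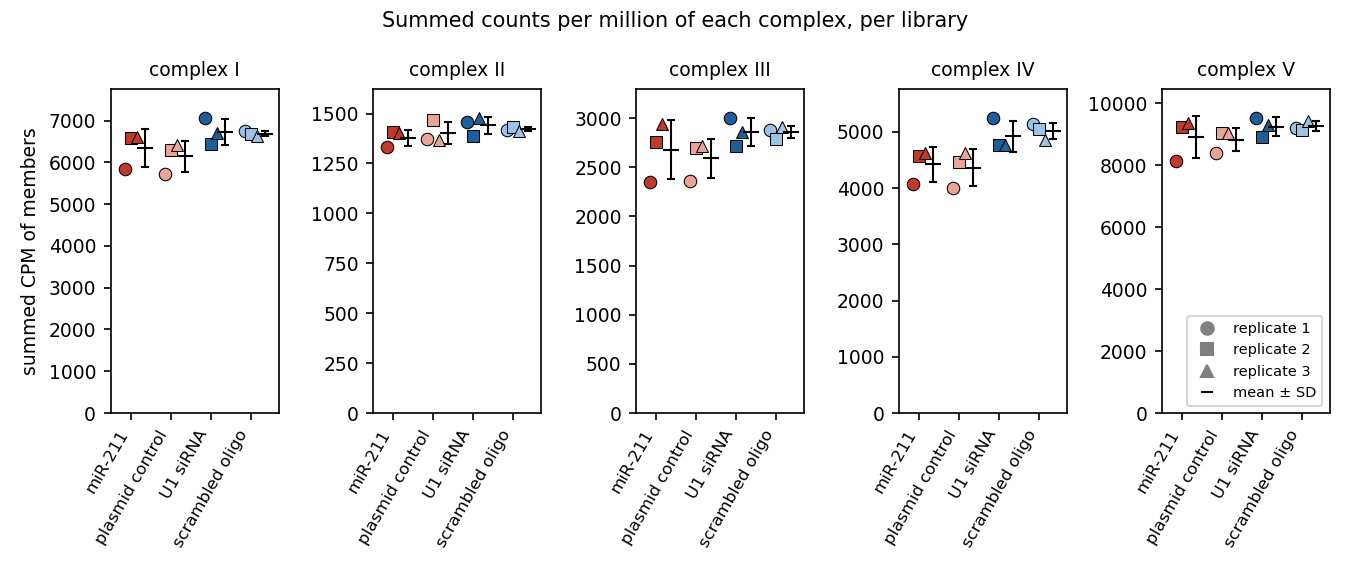
Summed CPM of the members of each complex in every library, with symbols for the replicate number and bars for the mean ± SD of 3 libraries. In complexes I, III, IV and V, replicate 1 of miR-211 and replicate 1 of plasmid control sit below the other libraries of their group.

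The first comparison asks whether chain genes changed with miR-211. Of the 103 members, 13 had too few counts to test: the 7 tissue isoforms, ATP5MGL, both readthrough genes, NDUFA13, NDUFA7 and SDHAF1. None of the 90 members that passed the filter passed the test: edgeR's quasi-likelihood test with Benjamini-Hochberg adjustment over 12685 genes called 0 members, against 1 gene of all tested (0.00788%), and every member's adjusted p was at least 0.996. DESeq2 and limma-voom also called 0. At an unadjusted p under 0.05 edgeR had 4 members (4.44%), beside 3.29% of all genes, DESeq2 3, beside 1.48%, and limma-voom 4, beside 3.22%. Same-numbered libraries deviated together here, and with the replicate number as a block 17 members reached an unadjusted p under 0.05 (18.9%), beside 7.43% of all genes. Of these 17, 14 were higher and 3 lower, the smallest blocked adjusted p was 0.547 and 0 were called.

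The estimated changes were small and leaned upward. Of the 90 members, 65 had a higher value with miR-211 (72.2%), beside 51.8% of all genes, and the median log2 fold change was 0.05, beside 0.01 for all genes. This lean depended on single libraries: without plasmid control replicate 1 the count was 36 of 90 with a median of -0.01, and without miR-211 replicate 2 it was 42. In the other direction, it was 74 without miR-211 replicate 1. With a covariate for pairs outside genes it was 75, with a median of 0.13. By complex, 32 of 43 members of complex I were higher, 5 of 7 of complex II, 7 of 9 of complex III, 9 of 12 of complex IV and 12 of 19 of complex V. The libraries of both groups did not overlap for 7 members. NDUFB10, NDUFB9, SDHA and SDHAF2 were higher in all miR-211 libraries (4.44%, beside 3.29% of all genes), and SDHD, NDUFB5 and ATP5PB were lower in all of them (3.33%, beside 6.42%).

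Among the members with the smallest p on the higher side were 3 supernumerary subunits of complex I. NDUFB10 had 290, 290 and 285 CPM with miR-211 and 265, 252 and 271 CPM with plasmid control, a log2 fold change of 0.16 (SE 0.07, unadjusted p = 0.030, adjusted p = 0.996, edgeR). With the replicate block its unadjusted p was 0.011 and its adjusted p 0.627 (edgeR). NDUFB9 had 153, 154 and 171 CPM with miR-211 and 141, 144 and 148 CPM with plasmid control, a log2 fold change of 0.17 (SE 0.08). In both genes the lowest miR-211 library lay above the highest control library. For NDUFB9 the summed strand columns held 2.73 times the unstranded counts. NDUFS5 had 512, 591 and 657 CPM with miR-211 and 477, 531 and 550 CPM with plasmid control (0.20, SE 0.09), and the groups overlapped. With the replicate block its unadjusted p was 0.0022 and its adjusted p 0.547 (edgeR). SDHA, a catalytic subunit, had 302, 304 and 355 CPM with miR-211 and 272, 299 and 301 CPM with plasmid control (0.17, SE 0.08).

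On the lower side stood SDHD, the small membrane anchor of complex II that helps to hold quinone. SDHD had 234, 245 and 228 CPM with miR-211 and 272, 301 and 249 CPM with plasmid control, a log2 fold change of -0.19 (SE 0.08, 95% interval -0.37 to -0.01, unadjusted p = 0.038, adjusted p = 0.996, edgeR). With the replicate block its unadjusted p was 0.0068 and its adjusted p 0.613 (edgeR). All miR-211 libraries were below all control libraries. Of the coding bases of SDHD, 47.7% lie under the same-strand gene AP002884.3. NDUFB5, a membrane-arm subunit of complex I, had 79.7, 89.5 and 77.1 CPM with miR-211 and 93.8, 93.4 and 92.9 CPM with plasmid control (-0.15, SE 0.09). NDUFA5, a peripheral-arm subunit, had 220, 237 and 202 CPM with miR-211 and 257, 252 and 232 CPM with plasmid control (-0.14, SE 0.08), with a slight overlap. The remaining members among the 5 lowest were the assembly factor NDUFAF6 (-0.17, SE 0.13) and the stalk subunit ATP5PF (-0.10, SE 0.09), whose groups overlapped.

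SDHD, NDUFB5 and NDUFA5, the 3 members with the smallest p on the lower side, each hold a seed match shown above, which was noticed after their values were seen. The members with matches lay on both sides of 0. Of the 6 members with an 8mer that were tested, 4 were lower and 2 higher, with a median log2 fold change of -0.02, and of the 9 with only a 7mer, 4 were lower and 5 higher, with a median of 0.08. Of the 75 tested members without a match, 17 were lower, with a median of 0.06, and 48.2% of all genes were lower. Among all genes tested, 51.4% of 1084 with an 8mer were lower, with a median of -0.01, and 47.8% of 7566 without a match were lower, with a median of 0.01. SDHC, with a pair of 8mers in a long UTR, had a log2 fold change of -0.02 (SE 0.07), UQCRFS1 -0.03 (SE 0.12), SDHAF4 0.18 (SE 0.14) and ATP5S 0.07 (SE 0.10). SDHAF1 was under the filter at 0.267 ± 0.218 CPM with miR-211 and 0.278 ± 0.241 CPM with plasmid control.

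COX5A had the lowest fold change of the group with matches, -0.31, but its libraries disagreed. It had 21.9, 28.96 and 51.6 CPM with miR-211 and 23.1, 27.3 and 79.1 CPM with plasmid control, so the SE was 0.36 and the 95% interval ran from -1.09 to 0.47. It had 106, 28.6 and 30.1 CPM after U1 siRNA, against 46.7, 25.9 and 63.5 CPM after scrambled oligo. COX5A, a nuclear subunit that joins complex IV early in its assembly, was the most variable member of at least 10 CPM, with a pooled within-group coefficient of variation of 62.3%. The median over 87 such members was 7.29%, and 81 of them were under 15%.

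**Figure D3:**
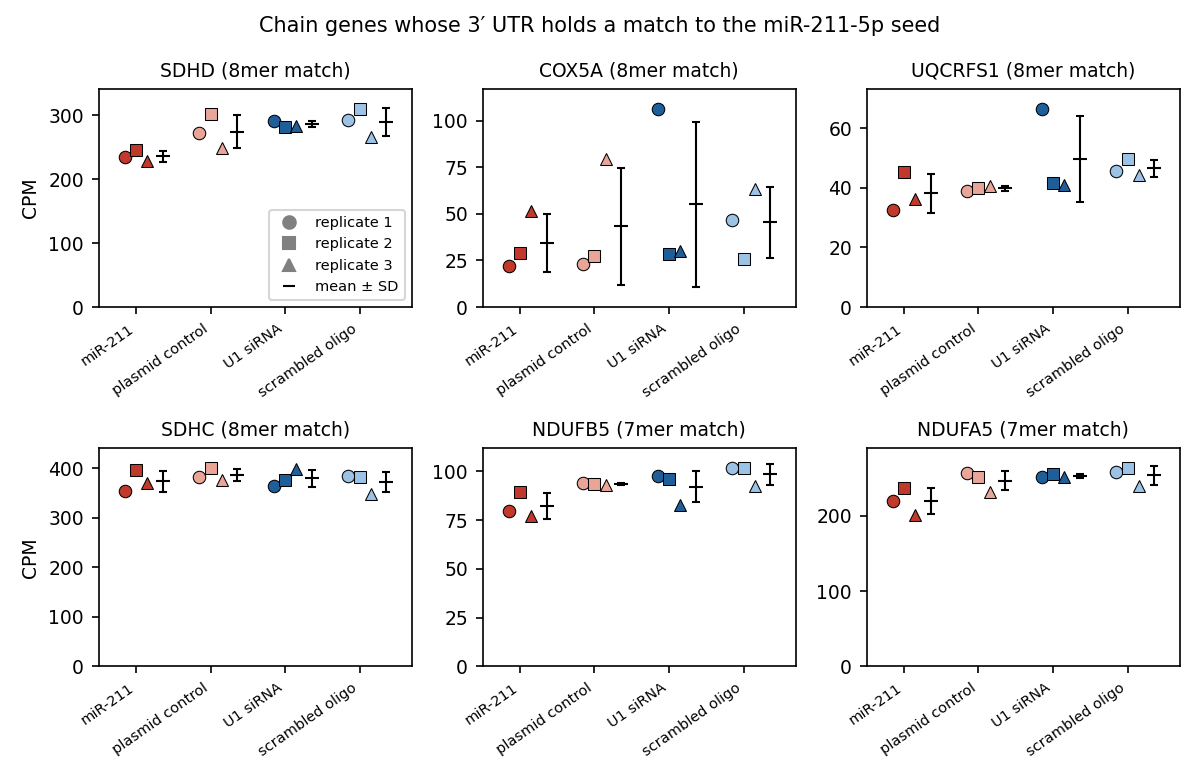
CPM per library of chain genes whose 3 prime UTR holds a match to the miR-211-5p seed, with symbols for the replicate number and bars for the mean ± SD of 3 libraries. SDHD and NDUFB5 lie lower in all miR-211 libraries than in all plasmid control libraries, and COX5A spreads from 21.9 to 106 CPM without regard to group.

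The second comparison asks whether chain genes changed with U1 siRNA, and no change was called there either. NDUFV2 joined the 13 members with too few counts to test. Of 89 members tested among 12413 genes, edgeR called 0, beside 0 of all genes (0%), and the smallest adjusted p was 0.9999. DESeq2 and limma-voom also called 0 members. At an unadjusted p under 0.05 edgeR and limma-voom each had 1 member, NDUFB8, and DESeq2 had 0. Of all genes, 1.58% did so by edgeR, 1.45% by limma-voom and 0.62% by DESeq2. Of the 89 members, 33 had a higher value with U1 siRNA (37.1%), beside 54.7% of all genes, with medians of -0.02 and 0.02. This share turned over with the library set apart above: without U1 siRNA replicate 2, 62 of 89 were higher and the median was 0.03, and without replicate 1, 13 were higher and the median was -0.07. Only 1 of 12 members of complex IV was higher, COX5A, whose high library was U1 siRNA replicate 1.

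NDUFB8, a complex I subunit whose protein is lost readily when the complex fails to assemble, had 19.9, 14.4 and 18.1 CPM after U1 siRNA, against 23.03, 21.3 and 22.4 CPM after scrambled oligo. Its log2 fold change was -0.34 (SE 0.15, unadjusted p = 0.038, adjusted p = 0.9999, edgeR). The groups did not overlap, and 85.2% of its coding bases and 33.8% of all its exon bases lie under the same-strand gene AL133352.1. COX8A and COX6A1, small subunits of complex IV, followed at -0.21 each (SE 0.12 each), and their groups overlapped. NDUFS1 (-0.11, SE 0.08) and UQCR11 (-0.14, SE 0.11) completed the 5 lowest. All coding bases of UQCR11 lie under the same-strand gene AC005943.1. On the higher side ATP5PB, the b subunit of the peripheral stalk, had 902, 890 and 885 CPM after U1 siRNA, against 831, 851 and 774 CPM after scrambled oligo (0.12, SE 0.07). It was the only member higher in all U1 siRNA libraries (1.12%, beside 3.54% of all genes), while NDUFB8 and ATP5MG were lower in all of them (2.25%, beside 2.92%). UQCRHL (0.26, SE 0.21), NDUFB6 (0.09, SE 0.07), UQCRC1 (0.11, SE 0.12) and NDUFA6 (0.06, SE 0.07) followed with overlapping groups.

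For the c subunit genes the log2 fold changes with miR-211 were 0.02 for ATP5MC1, 0.14 for ATP5MC2 and 0.13 for ATP5MC3 (SE 0.08 each), and with U1 siRNA they were 0.01, 0.01 and -0.05 (SE 0.08, 0.07 and 0.07). For ATP5MC2 the 95% interval was -0.04 to 0.32 with miR-211 and -0.14 to 0.16 with U1 siRNA. An interaction term over 13520 genes and all 12 libraries compared the miR-211 effect with the U1 siRNA effect. It called 0 of 90 members, beside 0.0074% of all genes, with 0 members at an unadjusted p under 0.05, beside 1.73% of all genes. DESeq2 and limma-voom also had 0 members called and 0 at an unadjusted p under 0.05.

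**Figure D4:**
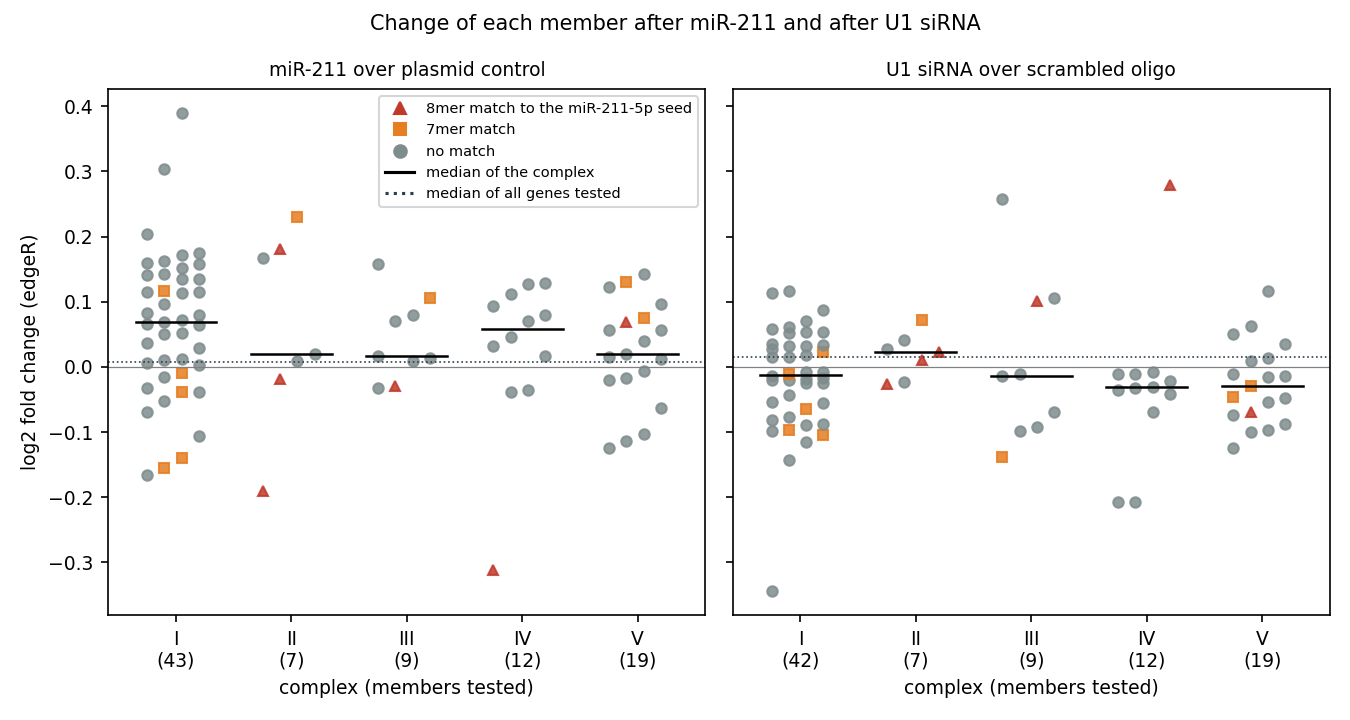
Log2 fold change of each tested member by complex, after miR-211 (left) and after U1 siRNA (right); colours mark matches to the miR-211-5p seed, solid lines are medians of the complex and the dotted line the median of all genes tested. The members run from -0.31 to 0.39 after miR-211 and from -0.34 to 0.28 after U1 siRNA, and none passed the threshold in either panel.

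Other genes of the pathway were read from lists chosen by function, and edgeR called 0 genes in each. The 13 subunits encoded in mitochondrial DNA were 0.09 at the median on the log2 scale with miR-211 (11 higher) and -0.03 with U1 siRNA (3 higher). Of 11 matched chain genes outside the symbol rule, such as cytochrome c and its reductase subunit CYC1, 7 were higher with miR-211 and 6 with U1 siRNA. Of 31 tested assembly factors outside the rule, 10 were higher with miR-211 and 12 with U1 siRNA. Of 16 tested regulators of respiratory gene transcription, 7 were higher with miR-211 and 4 with U1 siRNA, and of 14 citric acid cycle enzymes, 10 and 9.

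The scrambled oligo group was set against the plasmid control group after the levels of the 4 groups had been seen. Both groups are also the controls of the comparisons above. Of 89 members, 74 were higher with the scrambled oligo (83.1%), beside 51.2% of all genes, and the median log2 fold change was 0.17, beside 0.0039 for all genes. Of these members 35 reached an unadjusted p under 0.05 (39.3%), beside 7.79% of 12650 genes, and all 35 were higher, beside 4.29% of all genes. No overlap was seen for 37 higher members (41.6%, beside 7.43%) and 1 lower member, NDUFAF1 (1.12%, beside 6.5%). After adjustment edgeR called 0 members, beside 0% of all genes, and limma-voom 0. DESeq2, whose filtering left 633 genes with an adjusted p, called 3 (ATP5MPL, COX6C and COX7A2), beside 6% of those genes. The treatment labels of the oligo libraries carry the letters WT and those of the plasmid libraries do not. Oligo against plasmid, and any other difference between the experiments, cannot be told apart.

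By complex and role, all 12 tested members of complex IV were higher, with a median of 0.20 (0.13 without plasmid control replicate 1, 0.32 with the share of pairs outside exons as covariate). In complexes I, III and IV, 42 of 46 supernumerary subunits were higher, with a median of 0.18. Of 11 tested core subunits of complexes I to III, 5 were higher, with a median of -0.00055. No gene of complex V was placed in either class. There 4 of 5 F1 subunits (median 0.07), 8 of 9 stalk and membrane subunits (0.25) and 3 of 3 c subunit genes (0.09) were higher. COX6A1 had 140, 126 and 180 CPM after scrambled oligo and 97.7, 116 and 115 CPM with plasmid control (0.43, SE 0.11, adjusted p = 0.412, edgeR). COX7B had 328, 315 and 295 CPM after scrambled oligo and 234, 269 and 267 CPM with plasmid control (0.28, SE 0.08). COX6C (0.29, SE 0.08), UQCRQ (0.36, SE 0.10) and ATP5MPL (0.27, SE 0.07) also had groups that did not overlap. By transcript length, of members of at least 10 CPM, 23 of 24 with a longest transcript under 1000 bases were higher (median 0.22), 20 of 25 with 1000 to 2000 bases (median 0.13) and 29 of 38 with over 2000 bases (median 0.09). Protein-coding genes of the same length classes had medians of 0.12, 0.03 and -0.03, so transcript length moved with the difference, and its part in it was not tested.

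The subunits encoded in mitochondrial DNA lay on the other side of 0. All 13 were lower with the scrambled oligo, with a median log2 fold change of -0.32, and 9 had an unadjusted p under 0.05, beside 7.79% of all genes, although edgeR called 0 after adjustment. DESeq2 called 5 of the 13, beside 6% of its genes, and edgeR without a filter 7, beside 0.114%. The count of 13 lower held under every alternative that was run. MT-CYB, the cytochrome b of complex III, averaged 1995 ± 111 CPM after scrambled oligo and 2686 ± 129 CPM with plasmid control (SD, n = 3 each). Its log2 fold change was -0.43 (SE 0.07, adjusted p = 0.064, edgeR). The nuclear members summed to 0.983, 1.04 and 1.27 times the mitochondrially encoded subunits in the scrambled oligo libraries, and to 0.687, 0.897 and 0.877 times in the plasmid control libraries, without overlap. The same ratio was 0.694, 0.797 and 0.982 with miR-211 and 1.30, 0.940 and 1.09 with U1 siRNA.

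**Figure D5:**
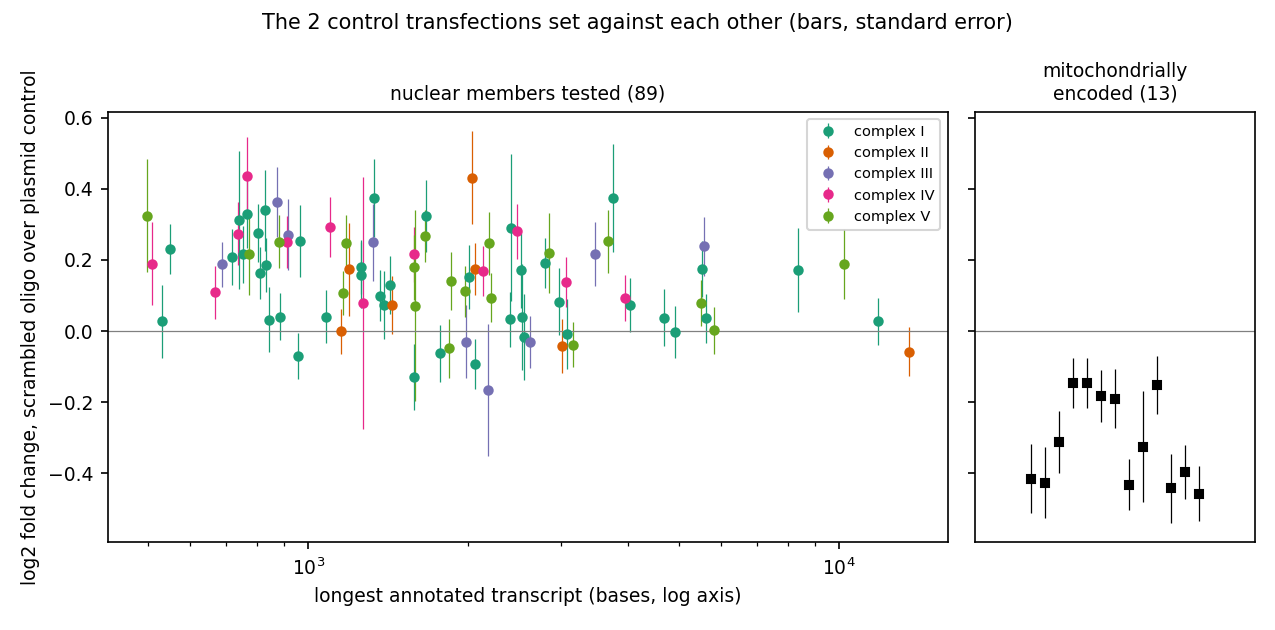
Log2 fold change of the scrambled oligo group over the plasmid control group with its standard error, for nuclear members against the length of their longest annotated transcript (log axis) and for the 13 mitochondrially encoded subunits. Most nuclear members lie above 0, short ones the highest, and all mitochondrially encoded subunits lie below 0.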

How the data were processed

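The authors deposited gene-level read counts for 12 libraries, in the layout of STAR's per-gene output. STAR 2.7.2a is named in the submitters' processing notes, which also name GRCh37 and hg19. All 58735 gene identifiers are those of GENCODE 29, made on GRCh38, and the build used for alignment remains unresolved. Coordinates here come from GENCODE 29 and RefSeq, not from the count tables. The unstranded counts deposited by the authors were used. The 4 summary lines were left out of library totals, and pairs outside genes were 14.5% to 44.5% of uniquely mapped pairs.

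CPM was taken over all gene counts and divided by the union of exons for levels per kb. Tests used edgeR 4.0.16 in R 4.3.3 (filterByExpr, TMM, quasi-likelihood, Benjamini-Hochberg adjusted p under 0.05) over all genes. Alternatives were DESeq2 1.42.0, limma-voom (limma 3.58.1), other scaling and filters, the replicate block, the share outside genes as covariate, summed strand columns and leaving out each library. The scripts were tested on simulated data. Fold changes are named for the 5 highest and 5 lowest members by signed p with a mean of at least 1 CPM, the c subunit genes and the isoforms that passed the filter, and other named genes were chosen after their values were seen. A member that this rule would name is not reported here. Members and lists were chosen with earlier results of these data known. DMAC2L was not matched under that symbol, since GENCODE 29 lists it as the member ATP5S.

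Same-numbered libraries correlated in their deviations from group means at 0.247, 0.279 and 0.245 for miR-211 and plasmid control. These numbers were therefore taken to pair libraries in the replicate block, though the labels do not say what they stand for. The main test, and every SE, interval and p-value given without a block, left this pairing out. For U1 siRNA and scrambled oligo the correlations were 0.133, 0.0947 and -0.0369, so those numbers were not taken to pair libraries. Nor were those of scrambled oligo and plasmid control (0.0556, 0.0297 and 0.181). Replicates differed by more than counting noise in every pair (chi-square per degree of freedom 1.95 to 7.03).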

Additional observations from a re-analysis of the deposited data

Results flagged for a closer look

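For 8 members the strand columns, which the comparisons did not use, held at least 3 times the counts of the unstranded column, while over all genes the ratio was 1.14. The ratios were 18.8 for NDUFA4L2 (113 against 6 counts over the 12 libraries), 17.3 for ATP5ME, 5.22 for NDUFS7, 5.19 for the readthrough gene ATP5MF-PTCD1, 5 for UQCRQ, 4.49 for NDUFB2, 3.34 for ATP5PF and 3.31 for UQCRB. Each has an antisense gene annotated over part of its exons, among them MYL5 for ATP5ME, SHMT2 for NDUFA4L2, GDF9 for UQCRQ and GABPA, which encodes an ETS factor of respiratory genes, for ATP5PF. How many of the added pairs belong to the antisense gene was not tested.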

How the results depend on the processing

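The count of members past the threshold was 0 for miR-211, for U1 siRNA and for the difference between both effects in every alternative run, and the replicate block changed no call there, with 64 of 90 members higher for miR-211 and 31 of 89 for U1 siRNA. For miR-211 the count of all genes past the threshold was 2 without a filter and 2 with the strand columns summed, against 1. The number of members higher ran from 36 to 74 when a library was left out, and the members' median from -0.01 to 0.10. The covariate for pairs outside genes gave 75 members higher for miR-211, with a median of 0.13. For U1 siRNA the count of all genes was 7 without a filter, where 17 members were higher and the members' median was -0.084 while that of all genes was 0.17. With a covariate for pairs outside genes, 56 members were higher. Leaving out a library gave 13 to 62 members higher and medians from -0.070 to 0.033. For the scrambled oligo over plasmid control, members past the threshold numbered 3 by DESeq2, 2 without a filter (COX6A1 and NDUFB1) and 1, COX6A1, with the replicate block, and 0 when any library was left out. All genes past it numbered 3 with a filter of 1 CPM, 38 by DESeq2, 4 with library totals, 3 by limma-voom, 51 without a filter, 30 with the replicate block and 6 with strand columns summed, and 0 to 21 when a library was left out, 21 being without scrambled oligo replicate 3. The members' median then ran from 0.11, without plasmid control replicate 1, to 0.19. Same-numbered libraries did not all correlate best with each other for U1 siRNA or for the scrambled oligo over plasmid control, where the block has no support from the labels. With the strand columns summed, complexes II, III, IV and V had 1257, 3054.5, 4124.5 and 8605 CPM. The sign of some small fold changes reversed. For miR-211, UQCRHL was -0.0017 with a filter of 1 CPM and -0.014 with library totals, and ATP5MC1 was -0.0063 with library totals. Leaving out a library gave UQCRHL -0.050 to 0.047 and ATP5MC1 -0.050 to 0.048. For U1 siRNA without a filter, ATP5MC1 was -0.055, ATP5MC2 -0.061 and NDUFA6 -0.0080. Leaving out a library gave ATP5MC1 -0.042 to 0.060, ATP5MC2 -0.025 to 0.044 and UQCRHL -0.0048 to 0.459. For scrambled oligo over plasmid control with the covariate, SDHC was 0.025 and UQCRHL 0.16, and leaving out a library gave UQCRHL -0.393 to 0.108. The cause was not tested. At this depth 13 members had too few counts to test in the miR-211 comparison.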

Other observations

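Base composition moved with level among the 74 members with little overlap. The 6 whose longest transcripts are over 60% G and C had a median of 28.7 CPM per kb of exon (0.359 to 129). The 16 between 50% and 60% had 81.8 CPM per kb, and the 52 under 50% had 104 CPM per kb. The 6 were ATP5F1D, NDUFAF3, NDUFAF8, NDUFB7, NDUFB11 and SDHAF1. These are values over genes of the same libraries, grouped after they were seen, with no test.

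After COX5A, the members of at least 10 CPM with the widest spread within groups were NDUFV1, the flavin subunit of complex I, with a pooled coefficient of variation of 23.3% (61.9 to 123 CPM over the 12 libraries), and NDUFA11, with 20.0%.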
